A study of Mus musculus with 11 samples.

Results

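The genes described are 10 of the 32285 genes in the count tables, chosen by name because they store, release or sense cellular lipid: Plin2, Abca1, Abcg1, Ch25h, Soat1, Lipa, Fabp4, Fabp5, Nr1h3 and Pparg. They were followed in brain cells of mice after sham surgery or middle cerebral artery occlusion/reperfusion (MCAO/R), a stroke model in which a filament blocks the artery and is then withdrawn. Single cells of the right brain were sequenced with a 10x Genomics Chromium 3′ kit, with 1 library per mouse, in 4 groups: sham + WT (3 libraries), sham + Lrg1-/- (3), MCAO/R + WT (2) and MCAO/R + Lrg1-/- (3). Lrg1-/- mice lack Lrg1, a secreted leucine-rich glycoprotein, in all cells, so a difference cannot be assigned to its loss in any given cell type. They were a bred knockout line that the study's methods place on C57BL/6J in one passage and on C57BL/6N, with backcrossing to that substrain, in another, while the WT mice were C57BL/6 animals of unstated substrain from another supplier. The labels give no age, sex or reperfusion time. The study's methods describe the WT mice as male and state different ages for the WT and the Lrg1-/- mice, so that age, supplier and substrain cannot be told apart from genotype, and surgery was under isoflurane.

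Cells that take up myelin, dead cells or lipoproteins must deal with the cholesterol and fatty acids these contain. Fatty acids and cholesteryl esters are packed into lipid droplets, whose surface carries Plin2, while excess cholesterol leaves through the ABC transporters Abca1 and Abcg1. Nuclear receptors of the LXR family (Nr1h3 encodes LXRα) switch on both transporters when oxysterols accumulate, and PPARγ, encoded by Pparg, responds to fatty acids and controls genes of lipid storage. Microglia, the resident macrophages of the brain, and the border-associated macrophages (BAM) of the meninges and perivascular spaces are the main phagocytes in this tissue, and blood monocytes join them after a stroke.

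The 10 genes are all protein coding and lie on 7 mouse chromosomes (build GRCm38, GENCODE M21 annotation). Plin2 (ENSMUSG00000028494) is at chr4:86648386-86670060 and Abca1 (ENSMUSG00000015243) at chr4:53030787-53159895, both on the minus strand. Abcg1 (ENSMUSG00000024030) is at chr17:31057675-31117988 on the plus strand and Soat1 (ENSMUSG00000026600) at chr1:156424525-156474331 on the minus strand. Ch25h (ENSMUSG00000050370, chr19:34473778-34475164) and Lipa (ENSMUSG00000024781, chr19:34492318-34527474) are close neighbours on the minus strand. Fabp5 (ENSMUSG00000027533, chr3:10012548-10016607, plus strand) and Fabp4 (ENSMUSG00000062515, chr3:10204088-10208576, minus strand) also lie on the same stretch of their chromosome. Nr1h3 (ENSMUSG00000002108) is at chr2:91184061-91202834 on the minus strand and Pparg (ENSMUSG00000000440) at chr6:115360951-115490399 on the plus strand.

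The promoters of Plin2 and Abca1 are shown because these genes rose together in microglia-like cells after MCAO/R. Each is the 250 bases before the start of the gene, read 5′ to 3′ on the gene's own strand (RefSeq, GRCm38.p6), and capitals mark the only match to a searched motif. The motifs, searched on both strands, were the nuclear receptor half-site AGGTCA, the E box CACGTG and the AP-1 site TGACTCA, which do not overlap in these windows.
Plin2, chr4:86670060-86670309, minus strand: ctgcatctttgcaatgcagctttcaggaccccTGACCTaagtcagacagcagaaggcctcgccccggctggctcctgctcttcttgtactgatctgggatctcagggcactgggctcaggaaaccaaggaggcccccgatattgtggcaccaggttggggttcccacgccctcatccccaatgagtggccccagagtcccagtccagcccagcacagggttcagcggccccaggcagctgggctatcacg
Abca1, chr4:53159896-53160145, minus strand: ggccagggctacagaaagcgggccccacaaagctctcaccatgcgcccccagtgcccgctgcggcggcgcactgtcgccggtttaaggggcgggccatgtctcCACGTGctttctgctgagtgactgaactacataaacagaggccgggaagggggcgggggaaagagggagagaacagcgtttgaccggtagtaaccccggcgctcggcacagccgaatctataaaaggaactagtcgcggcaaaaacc
The Plin2 window held the half-site on its reverse strand at position -218 from the start, and the Abca1 window held the E box at -147. Of the 10 windows for 7 of the 10 genes in the RefSeq promoter table used here, 4 held any of these motifs, the other 2 being Pparg windows with AGGTCA at -28 and -9. Over all 32851 promoter windows of this length, 14.0% held the half-site, 6.02% the E box and 4.46% the AP-1 site, and a match is a description of the sequence only.

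The libraries held 5650 to 36858 barcodes and 37159497 to 171813031 UMIs each. After limits of more than 500 genes, more than 1000 UMIs and under 25% mitochondrial UMIs, and removal of 7362 predicted doublets, 125075 cells remained, of which 33064 (26.4%) received no cell type name. Lrg1 checked the genotype: in endothelial-like cells it stood at 7.15, 22.9 and 7.56 CPM (counts per 1000000) in sham + WT and at 435 and 543 in MCAO/R + WT, and no UMI of it was found there in any of the 6 Lrg1-/- libraries. The genotypes also differed in quality. Haemoglobin took 0.0236 to 0.0451% of UMIs in WT and 4.35 to 10.05% in Lrg1-/- libraries, the choroid plexus gene Ttr 0.103 to 0.677% and 1.63 to 7.41%, and the median UMIs per cell were 6064 to 11504 and 3190 to 7911. These differences and the genotype cannot be told apart in this design. Barcode sequences shared by a pair of libraries numbered 14 to 180.

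Each gene was measured as UMIs summed per library and cell type, in CPM of that sum after TMM scaling. A call required an adjusted p below 0.05 (Benjamini-Hochberg, over every gene tested in that cell type) and a natural-log fold change beyond 0.25 in either direction, from the edgeR quasi-likelihood test with all 4 groups in 1 fit. A fit that leaves out 1 of the 2 MCAO/R + WT libraries has 1 library in that group, which is assumed to vary like the other groups. Fold changes below are log2 values with their standard error (SE). Surgery was compared within each genotype and genotype within each surgery, so that comparisons which share a group are not independent of each other. Non-overlap of groups is a description of 2 or 3 libraries each. The share of all genes without overlap was not counted.

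Microglia-like cells numbered 31596, with 246 to 5270 per library. Microglia markers such as P2ry12, Tmem119 and Cx3cr1 summed to 12972 to 13939 CPM in sham + WT, 10387 to 12472 in sham + Lrg1-/-, 5179 to 5623 in MCAO/R + WT and 7197 to 8681 in MCAO/R + Lrg1-/-. BAM markers summed to at most 51.5 CPM in any library, and monocyte-derived macrophage markers to 22.3 to 37.8 CPM in sham, 33.1 to 89.4 CPM in MCAO/R + WT and 73.1 to 205 CPM in MCAO/R + Lrg1-/- libraries. After MCAO/R, Plin2, Abca1, Ch25h and Soat1 were higher in these cells in both genotypes, Fabp4 in WT, and Abcg1, Lipa and Fabp5 in Lrg1-/-, while Nr1h3 and Pparg stayed at a few CPM or less. In WT, 5 of the 10 genes were called higher after MCAO/R and none lower, against 20.9% of all genes tested called in either direction. In Lrg1-/-, 7 were called higher and none lower, against 35.1%. The median log2 difference over the 10 genes was 0.80 in WT and 0.96 in Lrg1-/-, and over all genes tested 0.05 and 0.03.

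**Figure D1:**
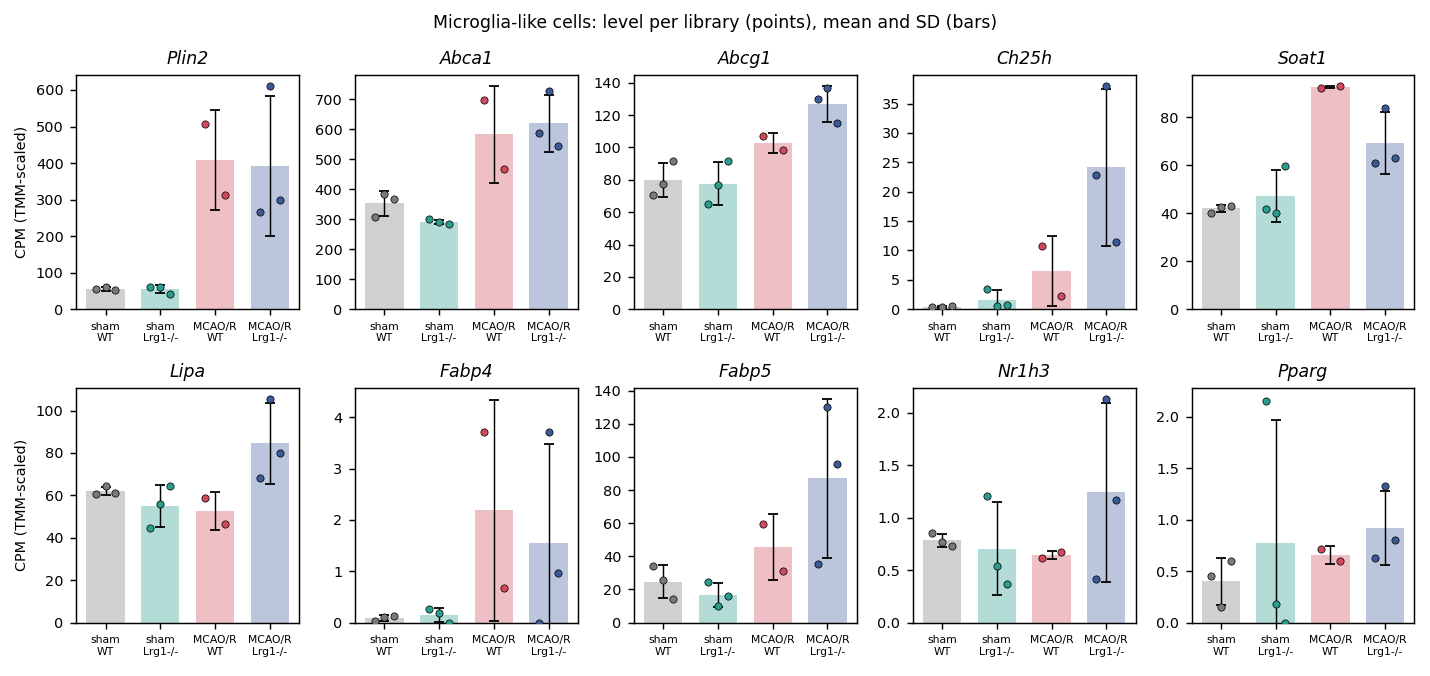
Level of each of the 10 genes in microglia-like cells in CPM (TMM-scaled), with a point per library and bars for the mean and SD of each of the 4 groups. All Plin2 points of both MCAO/R groups (266 CPM and above) lie above all sham points (61.1 CPM and below).

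Plin2, the coat protein of lipid droplets, stood at 54.8, 60.3 and 51.3 CPM in sham + WT, at 61.1, 60.7 and 42.2 in sham + Lrg1-/-, at 506 and 312 in MCAO/R + WT and at 266, 612 and 298 in MCAO/R + Lrg1-/-. Every library of both MCAO/R groups lay above every sham library, while the MCAO/R groups overlapped each other. It rose by 2.88 in WT (SE 0.31, adjusted p = 3.96e-05, 7.38-fold) and by 2.83 in Lrg1-/- (SE 0.30, adjusted p = 6.36e-05, 7.11-fold). With every cell thinned to 1000 UMIs, a Plin2 UMI was found in 4.09 to 4.88% of sham + WT microglia-like cells, 4.90 to 6.40% of sham + Lrg1-/-, 22.5 to 29.1% of MCAO/R + WT and 19.7 to 32.2% of MCAO/R + Lrg1-/- cells. Unthinned, the shares were 20.1 to 26.8%, 20.3 to 25.9%, 69.7 to 80.5% and 62.2 to 77.8%. Oligodendrocyte-like cells, where Plin2 was among the lowest, gave 0.413 to 2.54% in the WT groups and 0.543 to 11.7% in the Lrg1-/- groups after the same thinning. Median UMIs per cell were 4453 to 15427 in the microglia-like and 3613 to 15943 in the oligodendrocyte-like cells.

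Transcripts of both ABC transporters of cholesterol were counted, and export itself was not measured. Abca1, which loads cholesterol onto lipid-poor apolipoproteins, was at 307, 385 and 368 CPM in sham + WT, 299.8, 289 and 284 in sham + Lrg1-/-, 698 and 469 in MCAO/R + WT and 586, 728 and 544 in MCAO/R + Lrg1-/-. Again all MCAO/R libraries were above all sham libraries. Abca1 rose by 0.72 in WT (SE 0.18, adjusted p = 0.0107) and by 1.09 in Lrg1-/- (SE 0.16, adjusted p = 0.000314). Without MCAO/R + WT replicate 1, the WT difference was 0.41 with an adjusted p of 0.193. Abcg1, which exports cholesterol to HDL particles, was at 70.8, 77.5 and 91.5 CPM in sham + WT and 64.8, 76.7 and 91.3 in sham + Lrg1-/-. After MCAO/R it was at 107 and 98.2 CPM in WT and at 129.8, 137 and 115 in Lrg1-/-. The groups did not overlap by surgery in either genotype, and the difference was 0.36 in WT (SE 0.16, adjusted p = 0.123) and a rise of 0.72 in Lrg1-/- (SE 0.15, adjusted p = 0.00196).

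The enzymes that process sterols behaved differently from each other. Soat1, which esterifies cholesterol for storage in droplets, was at 40.2, 42.7 and 43.2 CPM in sham + WT, 41.8, 40.2 and 59.4 in sham + Lrg1-/-, 92.1 and 92.9 in MCAO/R + WT and 60.7, 83.8 and 62.9 in MCAO/R + Lrg1-/-. It rose by 1.14 in WT (SE 0.17, adjusted p = 0.000452) and by 0.58 in Lrg1-/- (SE 0.16, adjusted p = 0.0145). The call in Lrg1-/- was lost without MCAO/R replicate 2 (0.40, adjusted p = 0.0772), sham replicate 1 (0.49, adjusted p = 0.0729) or sham replicate 2 (0.42, adjusted p = 0.0954). Ch25h, which makes the oxysterol 25-hydroxycholesterol, was scarce in sham, at 0.3505, 0.332 and 0.624 CPM in WT and 3.50, 0.539 and 0.734 in Lrg1-/-. After MCAO/R it was at 10.8 and 2.28 CPM in WT and at 22.9, 38.0 and 11.5 in Lrg1-/-. It rose by 3.91 in WT (SE 0.69, adjusted p = 0.00156) and by 3.70 in Lrg1-/- (SE 0.71, adjusted p = 0.00148). Lipa, the lysosomal acid lipase that frees cholesterol from esters, was at 60.5, 64.4 and 61.3 CPM in sham + WT, 44.7, 56.0 and 64.5 in sham + Lrg1-/-, 58.9 and 46.3 in MCAO/R + WT and 68.0, 105 and 80.2 in MCAO/R + Lrg1-/-. The WT groups differed by -0.24 (SE 0.19, adjusted p = 0.429), and in Lrg1-/- Lipa rose by 0.64 (SE 0.18, adjusted p = 0.0126), a call lost without MCAO/R replicate 2 (0.44, adjusted p = 0.0659) or sham replicate 1 (0.49, adjusted p = 0.0702).

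The fatty acid carriers and nuclear receptors were mostly near the limit of detection. Fabp5 was at 34.3, 25.5 and 14.5 CPM in sham + WT, 24.3, 10.1 and 15.8 in sham + Lrg1-/-, 59.7 and 31.3 in MCAO/R + WT and 35.3, 130.1 and 95.6 in MCAO/R + Lrg1-/-. The WT groups overlapped (0.88, SE 0.46, adjusted p = 0.211), and in Lrg1-/- it rose by 2.38 (SE 0.48, adjusted p = 0.00185, 5.19-fold). Fabp4 was at 0.0250, 0.102 and 0.136 CPM in sham + WT and 3.71 and 0.668 in MCAO/R + WT, a rise of 4.598 (SE 0.97, adjusted p = 0.00478) that was 2.88 without MCAO/R replicate 1 (adjusted p = 0.105). In Lrg1-/- it was at 0.269, 0.1795 and 0 CPM in sham and at 0, 3.72 and 0.957 after MCAO/R, from 3 and 165 UMIs, a ratio of 10.1 with an exact 95% counting interval of 3.39 to 49.3 (fitted difference 3.28, SE 1.33, adjusted p = 0.0715). This difference passed without any 1 of 4 libraries, MCAO/R + Lrg1-/- replicates 1 and 5 and both MCAO/R + WT libraries (adjusted p 0.0322 to 0.0489), with DESeq2 (3.06, adjusted p = 0.0414), without the filter on low counts (3.33, adjusted p = 0.0191) and without the 10% highest doublet scores (4.56, adjusted p = 0.0485). Nr1h3 stayed between 0.367 and 2.13 CPM and Pparg between 0 and 2.15 CPM in all libraries, and neither was called. After thinning, at most 0.33% of microglia-like cells in a library held a UMI of Nr1h3, Pparg or Fabp4.

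Between genotypes after MCAO/R, 1 of the 10 genes was called in microglia-like cells, against 19.7% of all genes tested, and the median log2 difference over the 10 was 0.45 against 0.09 over all genes. Lipa, with the values given above, was higher in MCAO/R + Lrg1-/- than in MCAO/R + WT by 0.69 (SE 0.19, adjusted p = 0.0235, 1.61-fold), with no overlap between the groups. This call was lost without MCAO/R + Lrg1-/- replicate 2 (0.51, adjusted p = 0.0689) or MCAO/R + WT replicate 2 (0.49, adjusted p = 0.184). In the same microglia-like sums dendritic cell markers were at 108 to 112 CPM in MCAO/R + WT and 169 to 188 in MCAO/R + Lrg1-/- (sham 257 to 278 in WT and 195 to 234 in Lrg1-/-), and neutrophil markers at 128 to 246 and 89.3 to 452 CPM (sham 195 to 234 and 227 to 267). In sham + WT endothelial-like sums the neutrophil markers were at 9.18 to 19.9 CPM. Whether the microglia-like sums of these markers come from other cells or from microglia-like cells themselves was not tested. Nor was their part in the Lipa difference between the MCAO/R genotypes. Ch25h also did not overlap between these groups (1.88, SE 0.63, adjusted p = 0.0517), and it passed without MCAO/R + WT replicate 1 (3.41, adjusted p = 0.00404) and without MCAO/R + Lrg1-/- replicate 5 (2.25, adjusted p = 0.0206) or sham + Lrg1-/- replicate 1 (1.89, adjusted p = 0.0449). Without MCAO/R + Lrg1-/- replicate 2 Soat1 passed as lower (-0.57, adjusted p = 0.0357), and without replicate 1 Fabp5 (1.31, adjusted p = 0.0411) and Nr1h3 (1.36, adjusted p = 0.0317) passed as higher. Plin2 differed by -0.06 (SE 0.31, adjusted p = 0.914), Abca1 by 0.09 (SE 0.18, adjusted p = 0.764), Abcg1 by 0.31 (adjusted p = 0.19) and Soat1 by -0.41 (SE 0.17, adjusted p = 0.107). The MCAO/R levels of Abcg1 and Soat1 given above also did not overlap between the genotypes, which with 2 and 3 libraries is a description and no call. For Fabp5 the difference was 0.96 (SE 0.48, adjusted p = 0.18), for Fabp4 -0.24 (adjusted p = 0.853), for Nr1h3 1.14 (adjusted p = 0.0935) and for Pparg 0.59 (adjusted p = 0.565).

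Between genotypes after sham surgery, 0 of 10 were called by edgeR, against 22.4% of all genes tested. At an unadjusted p below 0.05 there was 1 (Ch25h, 2.09, SE 0.88, adjusted p = 0.106), and DESeq2 called 0. Ch25h passed without either MCAO/R + WT library (adjusted p 0.0423 and 0.0465). The Abca1 libraries did not overlap, being lower in Lrg1-/- (-0.28, SE 0.16, adjusted p = 0.232). Plin2 (-0.01), Abcg1 (-0.05), Soat1 (0.15), Lipa (-0.18), Fabp5 (-0.54), Fabp4 (1.08), Nr1h3 (0.02) and Pparg (1.30) overlapped between the sham genotypes (adjusted p 0.246 to 0.99). The test of whether the response to surgery differed between genotypes called 0 of 10 by edgeR, against 6.41%. Soat1 (-0.56, adjusted p = 0.164), Lipa (0.88, SE 0.26, adjusted p = 0.0612) and Fabp5 (1.497, adjusted p = 0.19) were the 3 at an unadjusted p below 0.05, and DESeq2 called 1, Lipa, which edgeR also called without MCAO/R + Lrg1-/- replicate 1 (0.98, adjusted p = 0.0268) or MCAO/R + WT replicate 1 (1.08, adjusted p = 0.0256). The interaction was -0.05 for Plin2, 0.37 for Abca1, 0.36 for Abcg1, -0.21 for Ch25h, -1.32 for Fabp4, 1.12 for Nr1h3 and -0.72 for Pparg (adjusted p 0.33 to 0.96). Haemoglobin summed to 15.1 to 24.2 CPM in WT and 4962 to 30677 CPM in Lrg1-/- microglia-like sums, and Ttr to 116 to 597 and 2733 to 7871 CPM. Leaving these genes out of the counts lost none of the calls above. That step leaves the UMIs of the 10 genes unchanged, so it did not test the part of RNA from other cells.

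The microglia-like cells came from 3 clusters, made without the 10 genes among the variable genes, and the groups filled them unequally. Cluster c1.1 held 65.9 to 90.0% of the sham + WT microglia-like cells, 13.8 to 14.7% of sham + Lrg1-/-, 5.74 to 7.94% of MCAO/R + WT and 0.381 to 3.25% of MCAO/R + Lrg1-/-. Cluster c1.2, led by Tnf, Ccl3, Rgs1, Ccl4, Lpl and Il1a, held at most 2.61% of the sham cells, 46.5 and 8.74% of the cells of MCAO/R + WT replicates 1 and 2, and 43.5 to 74.0% of those of MCAO/R + Lrg1-/-. The remaining cluster, c1.0, held 9.74 to 33.8%, 82.7 to 84.6%, 47.7 to 83.3% and 25.6 to 53.3% of the 4 groups in the same order. Abundance of the genes within a cluster is given below in CPM of its own total.

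**Figure D2:**
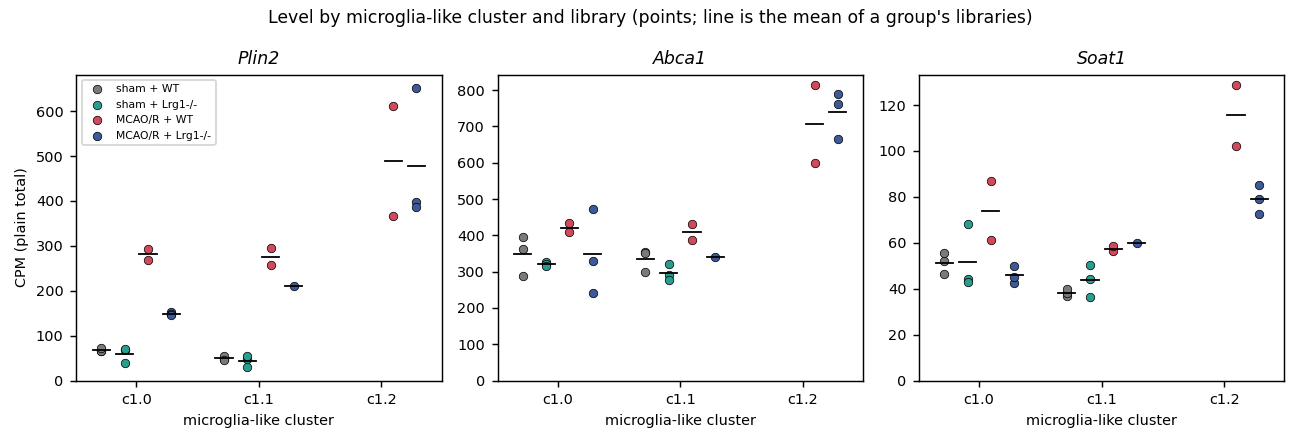
Plin2, Abca1 and Soat1 in CPM of the cluster total, a point per library with at least 20 cells, for the microglia-like clusters c1.0, c1.1 and c1.2 and the 4 groups. In c1.2, which has points for MCAO/R libraries only, Plin2 lies between 366 and 651 CPM, and in c1.0 the MCAO/R + Lrg1-/- points lie between 146 and 153 CPM and the MCAO/R + WT points between 269.5 and 292 CPM.

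Within c1.0, Plin2 stood at 65.0 to 73.2 CPM in sham + WT and 38.0 to 69.6 in sham + Lrg1-/-, and at 269.5 and 292 CPM in MCAO/R + WT and 146 to 153 in MCAO/R + Lrg1-/-. It rose with surgery by 2.07 in WT (adjusted p = 4.55e-06) and by 1.29 in Lrg1-/- (adjusted p = 0.000396), and was lower in MCAO/R + Lrg1-/- than in MCAO/R + WT by 1.02 on the log2 scale (log2 difference -1.02, adjusted p = 0.00107). Over all microglia-like cells this genotype difference was -0.06. The Plin2 interaction within c1.0 was -0.78 (adjusted p = 0.0625) and was not called, while that of Fabp5 was called (2.27, adjusted p = 0.0334). Of the other genes called with surgery over all microglia-like cells, Ch25h in WT (2.73, adjusted p = 0.0223) and Fabp5 in Lrg1-/- (1.56, adjusted p = 0.0164) also passed within c1.0. Those that did not pass there were Abca1 (0.29, adjusted p = 0.368 in WT, and 0.07, adjusted p = 0.824 in Lrg1-/-) and Soat1 (0.56, adjusted p = 0.065, and -0.17, adjusted p = 0.571). In Lrg1-/- Abcg1 (0.16, adjusted p = 0.517), Lipa (0.07, adjusted p = 0.831) and Ch25h (1.72, adjusted p = 0.1) did not pass either, and Fabp4 was not tested in c1.0. Soat1 in c1.0 was at 61.1 and 87.0 CPM in MCAO/R + WT and 42.5 to 50.1 in MCAO/R + Lrg1-/- (-0.80, adjusted p = 0.0107), and Fabp5 at 18.9 and 25.2 against 29.5 to 78.8 CPM (1.35, adjusted p = 0.0355). Lipa in c1.0 differed by 0.30 (adjusted p = 0.319) and Abca1 by -0.40 (adjusted p = 0.189).

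Within c1.2, Plin2 was at 612 and 366 CPM in MCAO/R + WT and 398, 651 and 386 in MCAO/R + Lrg1-/- (-0.22, adjusted p = 0.73). All c1.2 values of Plin2 and Abca1 (600.03 to 814 CPM) lay above those of c1.0 in the same libraries. Lipa was at 55.9 and 54.6 CPM in WT and 88.2 to 104 in Lrg1-/- (0.60, adjusted p = 0.0875), and Soat1 at 102 and 129 against 72.5 to 85.2 (-0.74, adjusted p = 0.0661). Neither pair of groups overlapped, which is a description of few libraries, and none of the 10 genes was called in c1.2. The cluster fits were added after the values had been seen.

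Macrophage-like cells were fewer, at 3796 in all, and were split by markers. BAM-like cells (31 to 239 per library) carried BAM markers such as Mrc1, Pf4 and Cd163 at a summed 5935 to 10969 CPM, and also microglia markers, at 2265 to 2656 CPM in sham + WT, 2744 to 3374 in sham + Lrg1-/-, 1165 to 1376 in MCAO/R + WT and 1691 to 2655 in MCAO/R + Lrg1-/-. Monocyte-derived-macrophage-like (MDM-like) cells (21 to 900 per library) were led by Arg1, Chil3, H2-Aa, H2-Eb1 and H2-Ab1. In sham their monocyte-derived macrophage markers summed to 2009.6 to 3793 CPM in WT and 2257 to 4405 CPM in Lrg1-/-, with Arg1 at 0, while dendritic cell markers summed to 3211 to 4298 and 2714 to 5656 CPM. In sham brains the markers thus go against the name of this class, which is kept only as a label. After MCAO/R the monocyte-derived macrophage markers summed to 3552 to 8968 CPM and the dendritic cell markers to 488 to 2539.8 CPM.

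In BAM-like cells, which had the highest Plin2 and Abca1 of all cell types in sham + WT, Plin2 and Soat1 rose after MCAO/R in WT, and Abca1, Plin2 and Soat1 were lower in Lrg1-/- than in WT under at least 1 of the surgeries. Plin2 was at 453, 568 and 376 CPM in sham + WT, 259, 195 and 241 in sham + Lrg1-/-, 897 and 856 in MCAO/R + WT and 311, 671 and 624.5 in MCAO/R + Lrg1-/-. Each WT group lay wholly above the Lrg1-/- group of the same surgery. Plin2 rose with surgery by 0.91 in WT (SE 0.25, adjusted p = 0.0342, 1.88-fold) and by 1.22 in Lrg1-/- (SE 0.25, adjusted p = 0.00716, 2.33-fold). Between genotypes it was lower in sham (-1.01, SE 0.25, adjusted p = 0.0418), and after MCAO/R the difference was -0.70 (SE 0.26, adjusted p = 0.0747). The WT surgery call was lost without MCAO/R + WT replicate 1 (adjusted p = 0.148) or 2 (0.0794), or sham + WT replicate 1 (0.102) or 3 (0.156). It was also lost without the cells of the 10% highest doublet scores (0.0727), as were the sham genotype calls of Plin2 (0.0596) and Abca1 (0.0622) in these cells.

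**Figure D3:**
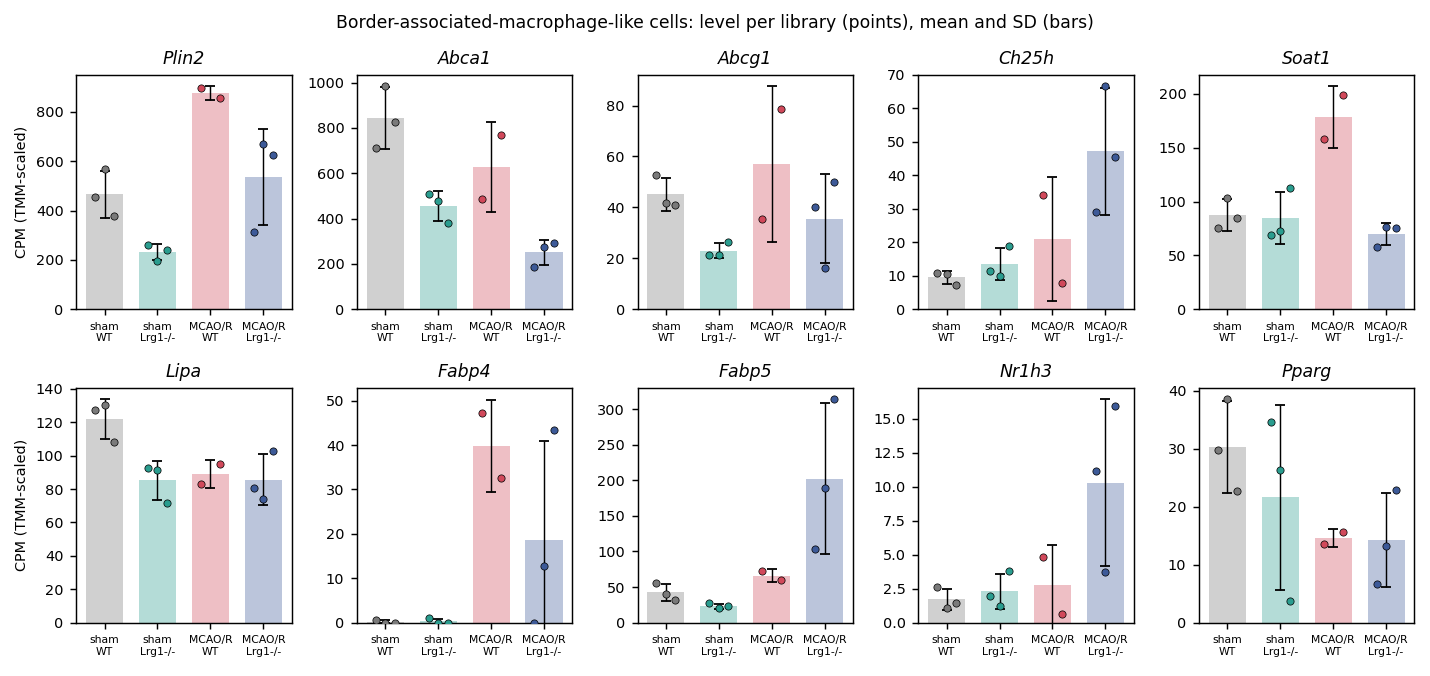
Level of each of the 10 genes in BAM-like cells in CPM (TMM-scaled), with a point per library and bars for the mean and SD of each group. The 3 MCAO/R + Lrg1-/- points of Abca1 (188 to 292 CPM) and of Soat1 (58.2 to 76.3 CPM) lie below both MCAO/R + WT points (487 and 768 CPM, and 158 and 199 CPM).

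Abca1 in BAM-like cells was at 714, 987 and 828 CPM in sham + WT, 507, 477 and 379.996 in sham + Lrg1-/-, 487 and 768 in MCAO/R + WT and 188, 273 and 292 in MCAO/R + Lrg1-/-. The Lrg1-/- libraries lay below the WT libraries under both surgeries. Abca1 was lower in Lrg1-/- after MCAO/R (-1.31, SE 0.23, adjusted p = 0.0016) and after sham (-0.88, SE 0.21, adjusted p = 0.0381), and fell with surgery in Lrg1-/- (-0.86, SE 0.22, adjusted p = 0.0208). The sham genotype call of Abca1 was lost without any 1 of the 6 sham libraries (adjusted p 0.0602 to 0.162), and that of Plin2 without any sham library but sham + WT replicate 3 (0.0674 to 0.188). The fall of Abca1 with surgery was lost without MCAO/R + Lrg1-/- replicate 1 or 2 or sham + Lrg1-/- replicate 1 or 2 (0.0611 to 0.0917).

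Soat1 was at 75.1, 103.5 and 84.3 CPM in sham + WT BAM-like cells, 69.3, 72.6 and 113 in sham + Lrg1-/-, 158 and 199 in MCAO/R + WT and 58.2, 76.3 and 75.2 in MCAO/R + Lrg1-/-. Only the MCAO/R + WT libraries stood apart from the other groups. Soat1 rose with surgery in WT (1.02, SE 0.21, adjusted p = 0.00534) and was lower in MCAO/R + Lrg1-/- than in MCAO/R + WT (-1.32, SE 0.23, adjusted p = 0.00131). The test of the difference between the genotypes' responses gave -1.196 with an unadjusted p of 0.00154 and an adjusted p of 0.126.

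Fabp5 took the opposite direction to Abca1 and Soat1 between genotypes after MCAO/R. In sham its Lrg1-/- libraries lay below its WT libraries, without a call. It was at 55.8, 39.6 and 32.3 CPM in sham + WT, 27.0, 20.04 and 22.6 in sham + Lrg1-/-, 72.5 and 59.6 in MCAO/R + WT and 103, 189 and 315 in MCAO/R + Lrg1-/-. It rose with surgery in Lrg1-/- by 3.09 (SE 0.37, adjusted p = 0.000402) and was higher in MCAO/R + Lrg1-/- than in MCAO/R + WT by 1.60 (SE 0.33, adjusted p = 0.00466). Fabp4, the adipocyte and macrophage fatty acid binding protein, was almost absent from sham BAM-like cells, at 0.521, 0 and 0 CPM in WT and 0.963, 0 and 0 in Lrg1-/-, which is 1 UMI per group. After MCAO/R it was at 47.2 and 32.5 CPM in WT (190 UMIs) and at 0, 12.9 and 43.3 in Lrg1-/- (50 UMIs). The ratios to sham were 243 with an exact 95% counting interval of 43.2 to 9663 in WT and 31.7 (5.43 to 1276) in Lrg1-/-, and both fits passed (adjusted p = 0.000132 and 0.0219), the second with overlapping groups. That second call was lost without sham + Lrg1-/- replicate 1 (adjusted p = 0.0865) or 2 (0.0959), and with DESeq2 (4.996, adjusted p = 0.0684).

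Ch25h in BAM-like cells was at 10.9, 10.5 and 7.23 CPM in sham + WT, 11.6, 10.02 and 18.8 in sham + Lrg1-/-, 34.0 and 7.82 in MCAO/R + WT and 29.1, 66.7 and 45.6 in MCAO/R + Lrg1-/-. It rose with surgery in Lrg1-/- (2.06, SE 0.50, adjusted p = 0.0186), a call lost without MCAO/R replicate 2 or sham replicate 1 or 2 (0.086 to 0.148), and on the cell graph built without batch balance (1.24, adjusted p = 0.136). Abcg1 (16.2 to 78.8 CPM), Lipa (71.5 to 130.5 CPM), Nr1h3 (0.602 to 15.96 CPM) and Pparg (3.76 to 38.5 CPM) were called in none of the 5 comparisons in BAM-like cells. Without MCAO/R + WT replicate 1, Ch25h (2.72, adjusted p = 0.00162) and Abcg1 (-1.44, adjusted p = 0.0188) passed between genotypes after MCAO/R, and without replicate 2 Ch25h passed with surgery in WT (1.82, adjusted p = 0.00623). Abcg1 (-1.28, adjusted p = 0.0499) and Fabp4 (-2.06, adjusted p = 0.0184) passed between genotypes without MCAO/R + Lrg1-/- replicate 5, and Plin2 did so without MCAO/R + Lrg1-/- replicate 2 (-0.92, adjusted p = 0.04998).

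Counted over the 10 genes, BAM-like calls numbered 3 between genotypes after MCAO/R (17.1% of all genes tested), 2 after sham (2.47%), 3 with surgery in WT (8.71%) and 5 with surgery in Lrg1-/- (9.66%). The interaction called 0 by edgeR (0.0711%), with 2 at an unadjusted p below 0.05, Soat1 and Fabp5 (2.44, adjusted p = 0.0673), and DESeq2 called these 2. Without the filter on low counts the calls of these 5 comparisons, in that order, numbered 7, 4, 5, 5 and 2, with Plin2 (-0.77), Abcg1 (-0.98), Ch25h (1.13) and Fabp4 (-1.32) added between genotypes after MCAO/R (adjusted p 0.00625 to 0.0197). Abcg1 (-1.11) and Fabp5 (-0.94) were added after sham, Ch25h (1.24) and Pparg (-1.03) with surgery in WT, and Soat1 and Fabp5 for the interaction. The Fabp5 interaction stayed at 2.44 without the filter, while its adjusted p went from 0.0673 to 9.999e-08. Why it moved was not tested, and the shares of all genes called without the filter are not given here. With the filter, the Fabp5 interaction also passed in edgeR without MCAO/R + Lrg1-/- replicate 1 (2.78, adjusted p = 0.0125) or MCAO/R + WT replicate 1 (2.67, adjusted p = 0.0304). In the same sums haemoglobin stood at 13.8 to 39.6 CPM in WT and 7037 to 27763 CPM in Lrg1-/-, dendritic cell markers at 257 to 618 CPM in sham + WT, 883 to 2046 in sham + Lrg1-/-, 28.1 to 43.4 in MCAO/R + WT and 239 to 624 in MCAO/R + Lrg1-/-, and monocyte-derived macrophage markers at 90.8 to 510.3 CPM in MCAO/R + Lrg1-/- and at most 108 CPM elsewhere. Microglia markers, given above, were higher in every Lrg1-/- than in every WT library of the same surgery, and neutrophil markers were at 57.6 to 115 CPM in sham, 64.9 to 68.8 in MCAO/R + WT and 53.6 to 438 in MCAO/R + Lrg1-/-. Leaving haemoglobin and Ttr out of the counts, a step that leaves the UMIs of the 10 genes unchanged, lost none of the BAM-like calls. Without cells over 1% haemoglobin none was lost either, and Fabp4 between genotypes after MCAO/R (-1.84, adjusted p = 0.0187) and the Fabp5 interaction (2.35, adjusted p = 0.0440) passed. The part of the other markers in the genotype differences was not tested.

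In MDM-like cells, Pparg was lower after MCAO/R in both genotypes. It was at 230.02, 303 and 491 CPM in sham + WT, 414, 280.3 and 225 in sham + Lrg1-/-, 40.6 and 32.9 in MCAO/R + WT and 64.9, 28.9 and 21.3 in MCAO/R + Lrg1-/-. All MCAO/R libraries lay below all sham libraries. Pparg fell by 3.18 on the log2 scale in WT (SE 0.50, adjusted p = 0.00391) and fell by 3.19 in Lrg1-/- (SE 0.40, adjusted p = 0.000728), the first not passing without MCAO/R + WT replicate 1 (-3.39, adjusted p = 0.0593). Markers of other cells moved with surgery in this class, and this touches each MDM-like surgery difference given here. Dendritic cell markers summed to 2714 to 5656 CPM in sham and 488 to 2539.8 CPM after MCAO/R, and Arg1 was at 0 in sham. Neutrophil markers summed to 65.8 to 142 CPM in sham, 348 to 953 CPM in MCAO/R + WT and 67.6 to 2106 CPM in MCAO/R + Lrg1-/-, and BAM markers to 399 to 701 CPM in sham and 249 to 2046 CPM after MCAO/R. A change of cells within the class and a change within cells cannot be told apart.

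Abca1 in MDM-like cells was at 92.0, 126 and 142 CPM in sham + WT, 71.9, 54.6 and 90.9 in sham + Lrg1-/-, 306 and 209 in MCAO/R + WT and 190.2, 225 and 324 in MCAO/R + Lrg1-/-. It rose with surgery in Lrg1-/- (1.76, SE 0.28, adjusted p = 0.0021), and in WT the difference was 1.11 (SE 0.29, adjusted p = 0.0513) with no overlap. That WT difference passed with DESeq2 (1.12, adjusted p = 0.0172), without the filter on low counts (1.09, adjusted p = 0.00341), at the 10% mitochondrial limit (adjusted p = 0.0497) and without MCAO/R + Lrg1-/- replicate 5 (adjusted p = 0.0274). Fabp5 was at 66.9, 45.2 and 22.2 CPM in sham + WT, 47.5, 72.8 and 66.9 in sham + Lrg1-/-, 352 and 50.8 in MCAO/R + WT and 282, 927 and 1830 in MCAO/R + Lrg1-/-. It rose with surgery in Lrg1-/- by 4.07 (SE 0.70, adjusted p = 0.00311, 16.8-fold), while the WT libraries after MCAO/R stood far from each other. Fabp4 was at 37.6, 32.0 and 37.6 CPM in sham + WT, 106, 54.6 and 40.1 in sham + Lrg1-/-, 21.2 and 8.97 in MCAO/R + WT and 16.6, 14.6 and 18.3 in MCAO/R + Lrg1-/-. It fell with surgery in Lrg1-/- (-2.10, SE 0.33, adjusted p = 0.00223). Plin2, at 208 to 345 CPM in sham and 293 to 711 CPM after MCAO/R, rose in Lrg1-/- by 1.14 (SE 0.31, adjusted p = 0.0272) with overlapping groups, a call lost without MCAO/R replicate 2 or 5 or sham replicate 1 or 2 (0.0952 to 0.103) and at the doublet limit (0.147). Abcg1 (40.9 to 153 CPM), Soat1 (75.3 to 153 CPM) and Lipa (44.4 to 135 CPM) were not called in any of the 5 comparisons in MDM-like cells.

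MDM-like calls over the 10 genes numbered 1 with surgery in WT (3.22% of all genes tested) and 5 in Lrg1-/- (12.8%). Between genotypes edgeR called 0 after MCAO/R (4.07%, 2 at an unadjusted p below 0.05, DESeq2 0), 0 after sham (2.43%, 4 unadjusted, DESeq2 0) and 0 for the interaction (0.0125%, 1 unadjusted, DESeq2 0). Without MCAO/R + Lrg1-/- replicate 1, Fabp5 passed between genotypes after MCAO/R (2.68, adjusted p = 0.0194) and with surgery in WT (2.29, adjusted p = 0.0367), and so did Abca1 with surgery in WT (1.12, adjusted p = 0.0275). With surgery in WT, Ch25h passed without MCAO/R + Lrg1-/- replicate 5 (3.65, adjusted p = 0.0343) and Fabp5 without MCAO/R + WT replicate 2 (2.9994, adjusted p = 0.0426). Without the filter on low counts the MDM-like calls numbered 1 (Fabp5) between genotypes after MCAO/R, 0 after sham, 4 with surgery in WT (Abca1, Ch25h and Fabp5 added), 6 in Lrg1-/- (Nr1h3 added) and 1 (Fabp5) for the interaction. For Fabp5 between genotypes after MCAO/R the log2 difference was 2.30 without the filter and 2.26 with it. Its adjusted p was 3.03e-14 and 0.0862, and why it moved was not tested. The shares of all genes called without the filter are not given here. Ch25h was counted at 2 UMIs in sham + WT, 15 in sham + Lrg1-/- and 23 in MCAO/R + WT, ratios to sham + WT of 8.62 (exact 95% counting interval 2.01 to 77.7) and 14.3 (3.53 to 125).

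When BAM-like and MDM-like cells were added up as macrophage-like cells, the mix differed between groups. MDM-like cells made 131 of 796 cells in sham + WT, 122 of 359 in sham + Lrg1-/-, 91 of 487 in MCAO/R + WT and 1837 of 2154 in MCAO/R + Lrg1-/-. Calls numbered 4 of the 10 genes between genotypes after MCAO/R (29.8% of all genes tested): Abca1 (-1.10, SE 0.28, adjusted p = 0.0109) and Fabp4 (-1.11, SE 0.35, adjusted p = 0.0316) lower, Fabp5 (3.23, SE 0.71, adjusted p = 0.00497) and Nr1h3 (2.37, SE 0.43, adjusted p = 0.00178) higher in Lrg1-/-. Nr1h3 was at 2.05, 1.66 and 2.20 CPM in sham + WT, 2.17, 2.71 and 10.7 in sham + Lrg1-/-, 4.52 and 3.41 in MCAO/R + WT and 16.5, 20.7 and 24.8 in MCAO/R + Lrg1-/-. Within MDM-like cells alone it was at 3.86 and 17.9 CPM in MCAO/R + WT and 21.1, 23.3 and 24.5 in MCAO/R + Lrg1-/-. Without MCAO/R + WT replicate 2 neither Abca1 (-0.77, adjusted p = 0.144) nor Fabp5 (2.73, adjusted p = 0.0659) passed, and Fabp4 did not pass without any 1 of MCAO/R + WT replicates 1 and 2 and MCAO/R + Lrg1-/- replicates 1 and 2 (adjusted p 0.0588 to 0.246). Fabp4 also did not pass without cells over 1% haemoglobin (-0.99, adjusted p = 0.0506) or at the doublet limit (-0.90, adjusted p = 0.0742).

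Of the other comparisons of macrophage-like cells, the sham genotypes gave 2 calls (4.57%), Abca1 (-1.18, adjusted p = 0.0243) and Fabp4 (1.86, adjusted p = 0.0203). Surgery in WT gave 2 (6.05%), Fabp4 (2.15, adjusted p = 0.0075) and Pparg (-2.31, adjusted p = 0.00319), and surgery in Lrg1-/- gave 4 (21.8%). These were Plin2 (1.28, adjusted p = 0.0111), Fabp5 (4.68, adjusted p = 0.0014), Nr1h3 (2.34, adjusted p = 0.00401) and Pparg (-2.27, adjusted p = 0.00106). The interaction called Fabp4 (-2.97, SE 0.53, adjusted p = 0.0395), 1 of 10 against 0.468%. Without any 1 of 7 libraries, namely MCAO/R + Lrg1-/- replicate 2, sham + Lrg1-/- replicate 1 and all 5 WT libraries, it did not pass (-2.31 to -3.18, adjusted p 0.057 to 0.116). Between genotypes after MCAO/R, Plin2 (-0.38), Abcg1 (-0.01), Ch25h (-0.43), Soat1 (-0.60), Lipa (-0.09) and Pparg (0.54) were not called in macrophage-like cells (adjusted p 0.0783 to 0.979), and genes not listed for another comparison were not called in it by edgeR. Soat1 with surgery in WT (0.84, adjusted p = 0.0631) was called by DESeq2 (0.84, adjusted p = 0.0317), and by edgeR without cells over 1% haemoglobin (0.0411), on the graph without batch balance (0.0271) and without sham + Lrg1-/- replicate 5 (0.0369). Both sham calls were lost when single libraries were left out. Abca1 did not pass without any 1 of 5 of the 6 sham libraries (all but sham + Lrg1-/- replicate 2, -0.99 to -1.28, adjusted p 0.0627 to 0.0929). Fabp4 did not pass without sham + Lrg1-/- replicate 1 (1.196, adjusted p = 0.12) or any sham + WT library (1.81 to 1.91, adjusted p 0.0765 to 0.0845). Fabp4 with surgery in WT was at an adjusted p of 0.0768 without MCAO/R + WT replicate 1, and Plin2 in Lrg1-/- at 0.0517 without sham replicate 2. Without MCAO/R + Lrg1-/- replicate 1, Plin2 passed in the sham genotypes (-0.78, adjusted p = 0.0282) and Plin2 (0.87, adjusted p = 0.0175) and Soat1 (0.84, adjusted p = 0.0337) with surgery in WT, and the Fabp5 interaction passed as well (3.89, adjusted p = 0.0163).

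**Figure D4:**
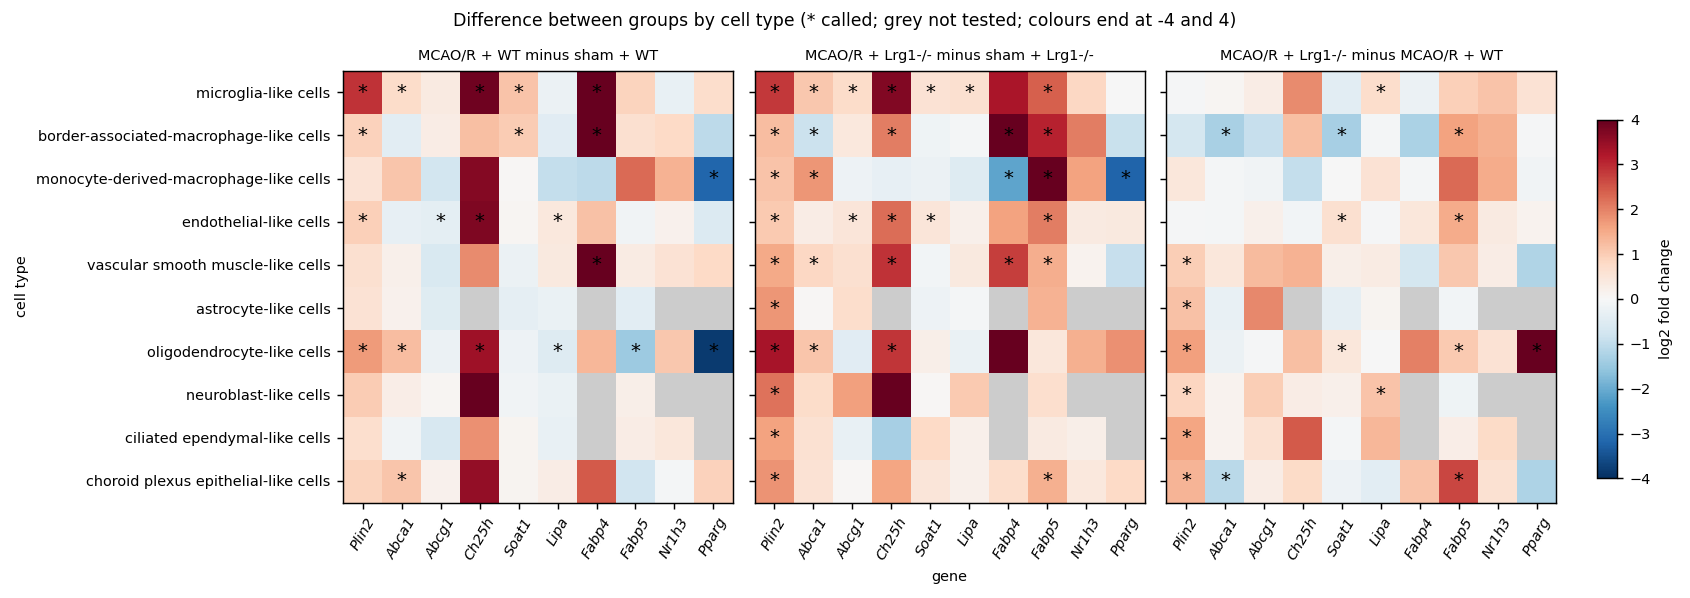
Log2 fold change of each of the 10 genes (columns) in 10 cell types (rows) for surgery in WT, surgery in Lrg1-/- and genotype after MCAO/R. An asterisk marks a call, grey a gene that was not tested, and colours end at -4 and 4. Plin2 carries positive values with surgery in Lrg1-/- in every cell type tested, with the largest in oligodendrocyte-like (3.30) and microglia-like cells (2.83).

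Across cell types in sham + WT, each gene had its own order of levels, in CPM scaled within each type. Plin2 was highest in BAM-like cells (466 ± 96.5 CPM, SD, n = 3), then MDM-like (286 ± 55.1), pericyte-like (133 ± 22.1), endothelial-like (65.7 ± 1.497) and microglia-like cells (55.5 ± 4.54), and none of these neighbours overlapped over their libraries. Abca1 was highest in BAM-like cells (843 ± 137 CPM), followed by microglia-like (353 ± 41.1) and astrocyte-like cells (217 ± 21.1), again without overlap. Nr1h3 was highest in pericyte-like cells (94.6 ± 2.8 CPM), far above astrocyte-like cells (5.92). Pparg was highest in MDM-like cells (341 ± 135 CPM) and then BAM-like cells (30.3). The lead in Soat1 was held by astrocyte-like cells (190 ± 21 CPM), in Lipa by BAM-like cells (122 ± 11.9), in Ch25h by endothelial-like cells (15.5 ± 3.72) and in Fabp5 by oligodendrocyte-like cells (701 ± 110). Abcg1 was highest in B cell-like (167 CPM), MDM-like (122) and oligodendrocyte-like cells (119), which overlapped only from one to the next.

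**Figure D5:**
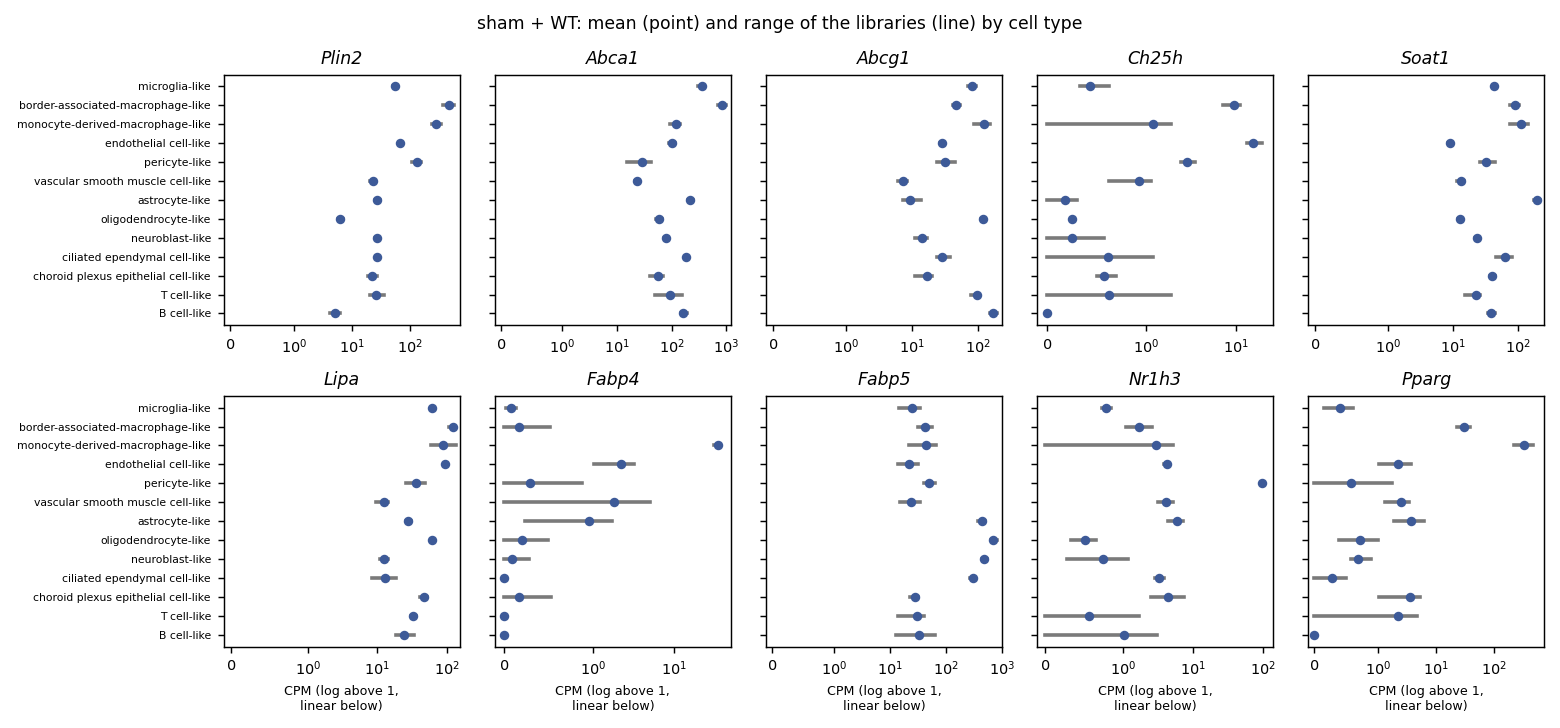
Mean CPM (TMM-scaled, with the range over libraries) of the 10 genes in 13 cell types of sham + WT brains. BAM-like cells hold the highest Plin2 (466 CPM), Abca1 (843 CPM) and Lipa (122 CPM), and oligodendrocyte-like cells the highest Fabp5 (701 CPM).

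After MCAO/R in WT the order of the Plin2 means changed: BAM-like cells (877 ± 29.0 CPM, n = 2) stood above neutrophil-like (570 ± 195), MDM-like (414 ± 69.8), microglia-like (409 ± 137) and pericyte-like cells (271 ± 133), the last 4 of which overlapped from one to the next. Neutrophil-like cells had only 1 sham + WT library with enough cells and were not ranked in sham. Abca1 in BAM-like (627 ± 198 CPM), microglia-like (583 ± 162) and neutrophil-like cells (456) overlapped likewise. Ch25h in endothelial-like cells (203 ± 72 CPM) was apart from BAM-like cells (20.9).

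Outside microglia and macrophages, the cell types with enough cells gave 14 calls higher and 1 lower in MCAO/R + Lrg1-/- than in MCAO/R + WT among 77 tests in 9 types (14.4% of all tests of all genes). The sham genotypes gave 2 higher and 6 lower of 68 (11.2%), surgery in WT 10 higher and 4 lower of 70 (8.81%), surgery in Lrg1-/- 19 higher and 0 lower of 68 (7.06%), and the interaction 2 higher of 61 (0.744%). Plin2 was called higher with surgery in 8 of 8 types in Lrg1-/- (1.04 to 3.30, median 1.69). In WT it was called higher in 3 of 8 types, namely endothelial-like (0.96), pericyte-like (1.01) and oligodendrocyte-like cells (1.70). All 8 WT values were positive (0.59 to 1.70, median 0.92), and the Plin2 interaction was called in 0 of 7 types. With surgery, pericyte-like cells were compared only in WT and T cell-like cells only in Lrg1-/-. Neutrophil-like and MDM-like cells, both rich in Plin2 in MCAO/R + WT, numbered 53 and 50, and 70 and 21, in its libraries. In MCAO/R + Lrg1-/- they numbered 13, 300 and 1177, and 38, 900 and 899, in replicate order. After MCAO/R, Plin2 was called higher in Lrg1-/- than in WT in 6 of 9 types, among them ciliated ependymal-like (1.58, SE 0.21, adjusted p = 0.0072), choroid plexus epithelial-like (1.37, SE 0.31, adjusted p = 0.007) and oligodendrocyte-like cells (1.63, SE 0.38, adjusted p = 0.0078). The part of RNA from other cells in the Plin2 differences of these 9 types was not tested. Without MCAO/R + WT replicate 2 the number of calls over all these types and genes was 4 in place of 15. Surgery in Lrg1-/- gave 12 calls without MCAO/R + Lrg1-/- replicate 2, 11 without sham + Lrg1-/- replicate 1 and 9 without sham + Lrg1-/- replicate 2. Surgery in WT gave 6 calls without MCAO/R + WT replicate 1, 9 without sham + WT replicate 1 or 2 and 8 without sham + WT replicate 3. The sham genotypes gave 4 without sham + WT replicate 2 and 5 without sham + WT replicate 3, sham + Lrg1-/- replicate 5 or MCAO/R + WT replicate 2. The interaction gave 1 without either MCAO/R + WT library, sham + Lrg1-/- replicate 1 or 2 or sham + WT replicate 2 or 3.

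Oligodendrocytes, which make myelin, had low Plin2 in sham, at 6.93, 5.999 and 5.78 CPM in WT and 6.36, 7.76 and 4.23 in Lrg1-/-. After MCAO/R it was at 28.5 and 12.6 CPM in WT and 27.9, 84.2 and 70.6 in Lrg1-/-. Abca1 in these cells was at 52.9, 66.3 and 55.5 CPM in sham + WT, 53.1, 58.0 and 52.5 in sham + Lrg1-/-, 132 and 145 in MCAO/R + WT and 110, 93.1 and 150 in MCAO/R + Lrg1-/-, with all MCAO/R libraries above all sham libraries. It rose by 1.25 in WT (SE 0.17, adjusted p = 0.00014) and by 1.12 in Lrg1-/- (adjusted p = 0.0014). Fabp5, a carrier of fatty acids, was at 828, 642 and 634 CPM in sham + WT, 385, 317 and 480 in sham + Lrg1-/-, 256 and 259 in MCAO/R + WT and 617, 633 and 362 in MCAO/R + Lrg1-/-. It fell with surgery in WT (-1.44, SE 0.24, adjusted p = 0.00068) and was lower in sham Lrg1-/- (-0.84, adjusted p = 0.019), yet higher in Lrg1-/- after MCAO/R (1.06, adjusted p = 0.0055), and the interaction was called (1.90, SE 0.31, adjusted p = 0.01).

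Endothelial-like cells held the most Ch25h. It was at 19.7, 13.1 and 13.5 CPM in sham + WT, 34.2, 20.1 and 66.7 in sham + Lrg1-/-, 254 and 152 in MCAO/R + WT and 172, 231 and 156 in MCAO/R + Lrg1-/-. It rose by 3.72 in WT (SE 0.39, adjusted p = 5.8e-05) and by 2.25 in Lrg1-/- (SE 0.36, adjusted p = 0.0018), and was higher in sham + Lrg1-/- than in sham + WT (1.35, SE 0.36, adjusted p = 0.024). Abcg1 there was at 25.8, 28.8 and 28.9 CPM in sham + WT, 16.9, 17.2 and 18.8 in sham + Lrg1-/-, 21.1 and 21.7 in MCAO/R + WT and 25.9, 21.9 and 27.3 in MCAO/R + Lrg1-/-. It was lower in sham + Lrg1-/- (-0.66, SE 0.11, adjusted p = 0.0022), fell with surgery in WT (-0.38, adjusted p = 0.045), rose with it in Lrg1-/- (0.49, adjusted p = 0.011), and the interaction was called (0.87, SE 0.17, adjusted p = 0.023). Microglia markers in the same endothelial-like sums were at 2069 to 2222 CPM in sham + WT, 1538 to 1860 in sham + Lrg1-/-, 1748 to 2200 in MCAO/R + WT and 2936 to 2980 in MCAO/R + Lrg1-/-, and neutrophil markers at 9.18 to 90.4 CPM in sham, 17.0 to 20.7 in MCAO/R + WT and 15.7 to 631 in MCAO/R + Lrg1-/-. Their part in these endothelial-like differences was not tested.

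Choroid plexus epithelial-like cells, which secrete cerebrospinal fluid, had Abca1 at 40.5, 69.7 and 62.5 CPM in sham + WT, 33.5, 44.5 and 42.3 in sham + Lrg1-/-, 124 and 128 in MCAO/R + WT and 42.8, 66.2 and 69.2 in MCAO/R + Lrg1-/-. Only the MCAO/R + WT libraries stood apart, and Abca1 was lower in MCAO/R + Lrg1-/- than in MCAO/R + WT (-1.08, adjusted p = 0.0071), the single lower call of that comparison. The MCAO/R + WT libraries held only 109 and 28 of these cells, against 1102, 2029 and 1251 in MCAO/R + Lrg1-/-. This limits the genotype differences of Abca1 and Fabp5 here and of Plin2 above. Fabp5 was at 18.1 and 12.9 CPM in MCAO/R + WT and 125, 83.6 and 99.6 in MCAO/R + Lrg1-/- choroid plexus epithelial-like cells (2.67, SE 0.30, adjusted p = 0.00078). Astrocyte-like cells had Fabp5 at 371, 496 and 450 CPM in sham + WT and 127, 79.5 and 140 in sham + Lrg1-/- (-1.93, adjusted p = 0.011). Fabp4 rose with surgery in WT in pericyte-like (6.76, adjusted p = 1.8e-05) and vascular smooth muscle-like cells (5.02, adjusted p = 0.0016), from levels near 0.

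The 6 lists of other genes of these pathways were read in the same fits. In microglia-like cells with surgery in WT, the lists gave 5 higher and 2 lower of 20 tested lipid droplet genes, 4 and 2 of 20 LXR genes, 5 and 1 of 16 PPAR genes, 5 and 2 of 12 uptake receptors, 3 and 1 of 16 lysosomal genes and 1 and 1 of 16 sterol synthesis genes. Their medians were 0.16, 0.22, 0.31, 0.43, 0.14 and -0.01, beside 0.05 over all genes. Against these counts, 20.9% of all genes tested were called in this comparison. The scavenger receptor Msr1 rose from 1.56 to 217 CPM in the group means (7.12, adjusted p = 7.96e-06). Marco, another scavenger receptor, was called higher as well (adjusted p = 0.00514), at 0.00835 CPM in sham + WT and 20.7 in MCAO/R + WT. Lpl, the lipoprotein lipase, went from 16.9 to 138 CPM (3.03, adjusted p = 0.0115), Plin4 from 0.138 to 4.46 CPM (4.96, adjusted p = 0.000159) and Apoe from 622 to 1711 CPM (1.46, adjusted p = 0.0115). Mgll, the monoacylglycerol lipase, fell from 107 to 44.2 CPM (-1.27, adjusted p = 0.000164), and so did the fatty acid importer of mitochondria Cpt1a (-0.93, adjusted p = 0.000237) and the lipid receptor Trem2 (-1.07, adjusted p = 0.000778).

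With surgery in Lrg1-/- the same lists gave 5 higher and 4 lower, 2 and 1, 6 and 3, 6 and 0, 8 and 3, and 3 and 0, of the same numbers tested and against 35.1% of all genes called. Msr1 (6.74, adjusted p = 5.41e-05), Lpl (4.82, adjusted p = 0.000547), the droplet protein Hilpda (2.94, adjusted p = 0.00207) and the fatty acid synthase Fasn (1.60, adjusted p = 0.000122) rose, and Mgll (-0.93) and Pltp (-1.49) fell. Between genotypes after MCAO/R the lists gave 0 and 4, 3 and 3, 3 and 1, 4 and 1, 1 and 2, and 2 and 0, against 19.7% of all genes. Among droplet genes, the triglyceride lipase Pnpla2 was at 114 CPM in MCAO/R + WT and 36.8 in MCAO/R + Lrg1-/- (-1.59, adjusted p = 0.00364), and Soat2, the other cholesterol esterifying enzyme, at 20.3 and 6.62 CPM (-1.58, adjusted p = 0.000463). Lpcat3, an LXR target that remodels phospholipids, was at 508 and 139 CPM (-1.87, adjusted p = 6.49e-06), and was lower in sham + Lrg1-/- as well (729 and 147 CPM, -2.31, adjusted p = 3.26e-07). Cd36, a fatty acid and lipoprotein receptor, was at 3.91 and 21.7 CPM (2.46, adjusted p = 0.0278) and Cd5l at 0.658 and 8.46 CPM (3.68, adjusted p = 0.00237), while Marco was at 20.7 and 0.444 CPM (-5.10, adjusted p = 0.0323).

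Between the sham genotypes the microglia-like lists gave 1 higher and 3 lower, 2 and 1, 1 and 0, 0 and 2, 0 and 4, and 0 and 0 in the same order, against 22.4% of all genes. In macrophage-like cells the genotypes after MCAO/R gave 3 and 3 of 15 droplet genes, 3 and 5 of 18 LXR genes, 4 and 5 of 13 PPAR genes, 3 and 2 of 11 uptake receptors, 2 and 3 of 16 lysosomal genes and 2 and 0 of 15 sterol genes, against 29.8% of all genes. Hilpda was at 65.3 CPM in MCAO/R + WT and 250 in MCAO/R + Lrg1-/- (1.93, adjusted p = 0.0448), Pnpla2 at 160 and 47.4 CPM (-1.73, adjusted p = 0.00161), Mylip, an E3 ubiquitin ligase, at 276 and 74 CPM (-1.92, adjusted p = 0.0007) and Cd36 at 780 and 226 CPM (-1.81, adjusted p = 0.0101). With surgery in Lrg1-/-, Hilpda was higher (3.50, adjusted p = 0.00467) and Apoe lower (-1.40, adjusted p = 0.000676) in the macrophage-like sums. MDM-like cells made 122 of 359 of these cells in sham + Lrg1-/-, 91 of 487 in MCAO/R + WT and 1837 of 2154 in MCAO/R + Lrg1-/-. The part of this mix in these macrophage-like differences was not tested. Values of these genes in BAM-like and MDM-like cells alone are not given here.

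The genes whose log2(CPM + 1) over the 11 microglia-like libraries was most like that of Plin2 were Tars2 (Pearson r 0.988), Lilrb4a (0.985), Gm43728 (0.985), Cd63 (0.983) and Ilf2 (0.9797), and for Abca1 they were Aen (0.989), Farsb (0.987), Immt (0.987), Ftsj3 (0.984) and Wdr4 (0.983). All these libraries fall into sham and MCAO/R groups, which the correlations share, and they are given as a description.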

How the data were processed

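Each of the 11 libraries, 1 per mouse, was placed in its group by its label. As deposited, every matrix holds unnormalized UMI counts, which per the file headers the authors made with Cell Ranger 7.0.1; STAR and the mm10 build are named in the submitters' processing notes. Cells with over 500 genes, over 1000 UMIs and under 25% mitochondrial UMIs were kept, and doublets were removed per library by a score of each cell against simulated pairs of cells, a method written for this work in the manner of Scrublet (in 2 libraries, where no usable threshold was found, the 6% highest scores). Cells were clustered on 2000 variable genes, from which the 10 genes and the pathway lists were left out, with 15 principal components and a graph of 3 neighbours per library. Leiden clustering at resolution 0.3 was run once on all cells and again within each cluster (scikit-learn 1.9.0, igraph 0.11.9, leidenalg 0.10.2). Clusters were named "X-like" from marker lists with at least 3 detected markers, under rules settled after the clusters had been seen. UMIs were summed per library and cell type with at least 20 cells and tested with edgeR 4.0.16 (R 4.3.3; TMM, filterByExpr, quasi-likelihood test, SE from the F statistic), and a comparison was reported with at least 2 libraries per group, apart from fits with a library left out. Shares of cells were computed after thinning each cell to 1000 UMIs, leaving out none of the kept cells. Counting intervals are exact 95% intervals and cover counting error only.

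The 10 genes were to be named in every main comparison, and those not called are in part given as ranges or counts. Of each pathway list the called genes with the 2 largest fold changes in each direction were eligible to be named, in microglia-like or macrophage-like cells. For likeness, the 5 genes with the highest correlation were named. The genes, lists, markers and tests were chosen with earlier results of these data known. Alternatives were DESeq2 1.42.0 and its size factors, no filter on low counts, a 10% mitochondrial limit, removal of cells over 1% haemoglobin or of the 10% highest doublet scores, a graph without batch balance, a replicate block and leaving out each library. Single microglia-like clusters, haemoglobin and Ttr left out, and the unbalanced graph with its unnamed microglia clusters added were chosen after seeing the data. Results of 1 further gene of the pathway lists are not reported here.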

Additional observations from a re-analysis of the deposited data

Results flagged for a closer look

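For 3 values the difference with surgery in Lrg1-/- differed from that in WT by the test of the interaction. Fabp4 in macrophage-like cells had an interaction of -2.97 (adjusted p = 0.0395, edgeR). Its libraries were at 7.78, 7.05 and 8.06 CPM in sham + WT, 42.9, 13.6 and 22.9 in sham + Lrg1-/-, 39.7 and 27.8 in MCAO/R + WT and 9.58, 14.8 and 19.9 in MCAO/R + Lrg1-/-. The MDM-like share of these cells went from 131 of 796 to 91 of 487 in WT and from 122 of 359 to 1837 of 2154 in Lrg1-/-, and Fabp4 was not called for this interaction in BAM-like (-2.36, adjusted p = 0.785) or MDM-like cells alone (-1.05, adjusted p = 0.769).

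Abcg1 in endothelial-like cells had an interaction of 0.87 (adjusted p = 0.023), with the lowest levels in sham + Lrg1-/-. Microglia markers in these cells were also lowest in sham + Lrg1-/- (1538 to 1860 CPM) and were highest in MCAO/R + Lrg1-/- (2936 to 2980 CPM), and their part in this value was not tested. Fabp5 in oligodendrocyte-like cells had an interaction of 1.90 (adjusted p = 0.01), with the highest levels in sham + WT and the lowest in MCAO/R + WT. The part of haemoglobin and Ttr, which were higher in all Lrg1-/- libraries, was not tested in these cells beyond leaving both out of the counts. That step does not change the UMIs of Fabp5.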

How the results depend on the processing

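Counts of called genes are given below for genotype after MCAO/R, genotype after sham, surgery in WT, surgery in Lrg1-/- and the interaction. In microglia-like cells they were 1, 0, 5, 7 and 0. Without the filter on low counts the first, second and last became 2, 1 and 1, and with DESeq2 the interaction became 1. The first became 2 without cells over 1% haemoglobin, 2 without the 10% highest doublet scores, 3 within cluster c1.0 and 0 within c1.2. Within c1.0, surgery gave 2 in WT, 2 in Lrg1-/- and 1 for the interaction, and Soat1 with surgery in Lrg1-/- reversed to -0.17. The graph without batch balance named only 41 and 16 microglia-like cells in the MCAO/R + WT libraries, so that replicate 1 alone stood for that group, below the minimum of 2 libraries and with its spread taken from the other groups. It gave 0, 1 (surgery in WT) and 3 (surgery in Lrg1-/-), with Abca1 at -0.081, Soat1 at -0.049 and Fabp4 at -3.67 in WT and Soat1 at -0.0091 in Lrg1-/-. With its unnamed microglia clusters added it gave 2 for the genotypes after MCAO/R and 1 for the interaction. In macrophage-like cells the counts were 4, 2, 2, 4 and 1. MDM-like cells alone gave 0, 0, 1 and 0 for all but surgery in Lrg1-/-, with Fabp4 reversed at -1.05 in WT and Abca1 at 1.76 in Lrg1-/-, and BAM-like cells alone gave 0 for the interaction, with Fabp4 at 4.92 in Lrg1-/-. No filter gave 6 for surgery in WT and 2 for the interaction, the doublet limit 0 for the interaction, and the unbalanced graph 1 for the sham genotypes. In the other cell types the counts were 15, 8, 14, 19 and 2, and became 25 (first), 30 (surgery in Lrg1-/-) and 11 (interaction) without the filter, 5 for the sham genotypes on the unbalanced graph and 4 for the interaction with DESeq2. Without the filter, adjusted p values of Fabp5 fell far at nearly the same log2 difference, as given above, and the cause was not tested. Leaving out 1 library gave 0 to 3, 0 to 1, 3 to 5, 5 to 8 and 0 to 1 in microglia-like cells, 1 to 4, 0 to 3, 1 to 4, 4 to 4 and 0 to 2 in macrophage-like cells, and 4 to 16, 4 to 11, 6 to 17, 9 to 21 and 1 to 3 in the other cell types. The replicate block gave 0 for the sham genotypes and 0 for the interaction in macrophage-like cells, and 9, 4 and 1 for the genotypes after MCAO/R, the sham genotypes and the interaction in the other cell types. The main fits did not treat replicate numbers as pairs. In microglia-like cells, same-numbered libraries of different groups correlated at -0.395 to 0.0640 in their deviations from group means (13 pairs). Libraries with different numbers did so at -0.385 to 0.395 (32 pairs). Deviations from the mean of so few libraries are in part fixed by each other, so these values cannot decide whether the numbers pair libraries. Under the block Lipa between the microglia-like genotypes after MCAO/R was at 0.63 (adjusted p = 0.0916) and Ch25h at 2.62 (adjusted p = 0.0179), and Abca1 with surgery in WT at 0.75 (adjusted p = 0.0566). In BAM-like cells the block ended the sham genotype calls of Plin2 (-1.18, adjusted p = 0.105) and Abca1 (-0.86, adjusted p = 0.170). It also ended the BAM-like call of Plin2 with surgery in WT (0.80, adjusted p = 0.192). Of 286 recomputed values for the 13 differences called in microglia-like cells, 257 kept direction and side of the threshold, 24 lost the call and 5 reversed; for the 13 in macrophage-like cells these were 238, 47 and 1 of 286, for the 13 in BAM-like cells 228, 32 and 0 of 260, and for the 6 in MDM-like cells 108, 6 and 0 of 114. The microglia-like reversals include Abca1, Soat1 and Fabp4 with surgery in WT on the unbalanced graph, where MCAO/R + WT replicate 1 stood alone. Apart from the settings that change which cells or genes enter, the cause of these changes was not tested. The planned addition of unnamed microglia clusters to the main graph gave no value, because no unnamed cluster scored highest for microglia. Counts of Fabp4, Nr1h3 and Pparg were low in microglia-like cells, where Fabp4, for example, was counted at 3 UMIs over all sham + Lrg1-/- libraries. Whether depth or low abundance accounts for this was not tested.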
